A study of Drosophila melanogaster with 6 samples.

Results

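The genes described here encode the pore-forming alpha subunits of voltage-gated and calcium-activated potassium channels in Drosophila melanogaster. They were chosen by symbol from the annotation of the array, and 9 of the 10 symbols were matched to a row, 1 row per gene, among 13402 genes in all. The 9 were Sh, Shab, Shal, Shaw, eag, sei, Elk, slo and SK. KCNQ, whose product carries a slow potassium current that opens below firing threshold, was matched to no row and is not analysed here.

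Head RNA was hybridised to 6 arrays of the type GeneChip Drosophila Gene 1.0 ST, of which 3 held control RNA and 3 the experimental pool. Every fly carried repo-GAL4, a driver of transgene expression in nearly all glia. In the control it was combined with an empty TRiP RNA interference vector. The pool mixed RNA of 7 lines in equal amounts, so each of its values is an average over lines. RNA interference was expressed in 5 of them, named SesB-RNAi, COX7A-RNAi, comt-RNAi, nrv2-RNAi and ATPalpha-RNAi, and the other two, UAS-Dube3a and UAS-htt.12Q.FL, overexpressed a protein. Each genotype gave 15 to 25 heads of flies that were about 3 to 5 days old and had grown up at 25 °C. Brain is the tissue named in the labels, but the protocol removed whole heads, which also hold eye, muscle, cuticle and fat. Whether the replicates of a group were separate RNA preparations is not stated in the labels, so p-values measure only how these 6 arrays spread, which may be technical variation.

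Potassium channels of this class open when the membrane depolarises or when calcium enters the cell, and the potassium that leaves brings the membrane back to rest. They shape the action potential, its repetition and the release of transmitter. Flies lacking some of them are known for hyperexcitable nerves, such as the leg shaking under ether that gave Shaker and ether-a-go-go their names. The series compared gliopathic seizure lines, in which the genetic change was made in glia, with flies that carried only the driver and the empty vector. The values below ask whether transcripts of these channels differed in the heads of the pooled lines.

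None of the 9 channel genes passed the test for a difference between pool and control. The differences, as pool minus control on the log2 scale, lay between -0.015 for Elk and 0.16 for eag, with a median of 0.07 against -0.0005 over all 16322 rows. In limma's moderated test, adjusted by Benjamini-Hochberg over all rows, 0 of 9 passed an adjusted p of 0.05, where 2.9% of all rows passed, 1.65% higher and 1.24% lower in the pool. At an unadjusted p under 0.05 only SK counted, 1 of 9 against 14.8% of all rows. That count was 3 of 9 (eag, sei and SK) with trend and robust variance settings and with array weights, and 0 with arrays centred on the median; limma called 0 of 9 in all 3 settings after adjustment. As deposited, 8 of the 9 means were higher in the pool, against 49.8% of all rows. With quantile normalization or with arrays centred on the median it was 7, since slo turned. The median difference of the channel genes was then 0.06 or 0.04, against -0.0031 or -0.0331 over all rows. These are values of whole heads, in which fewer cells of a type and less RNA per cell cannot be told apart.

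The precision of the arrays bounds what could have been seen. The 95% intervals of the 9 differences, each unadjusted, reached down to -0.21 for Elk and up to 0.32 for eag, that is from 0.867-fold to 1.25-fold of the control. With the spread of its own row, Shab, the most tightly measured, would have passed at an observed change of 1.18-fold. For Shaw, the least tightly measured, it was 1.33-fold. Smaller observed changes would not have passed in this fit with 3 arrays per group. These are not limits for a true change, which could be larger and still be missed. No row of a member was among the dimmest 25% of the table. Elk, the dimmest of the 9 at 5.53 to 5.86, lay near the array medians of 5.53 to 5.63.

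**Figure D1:**
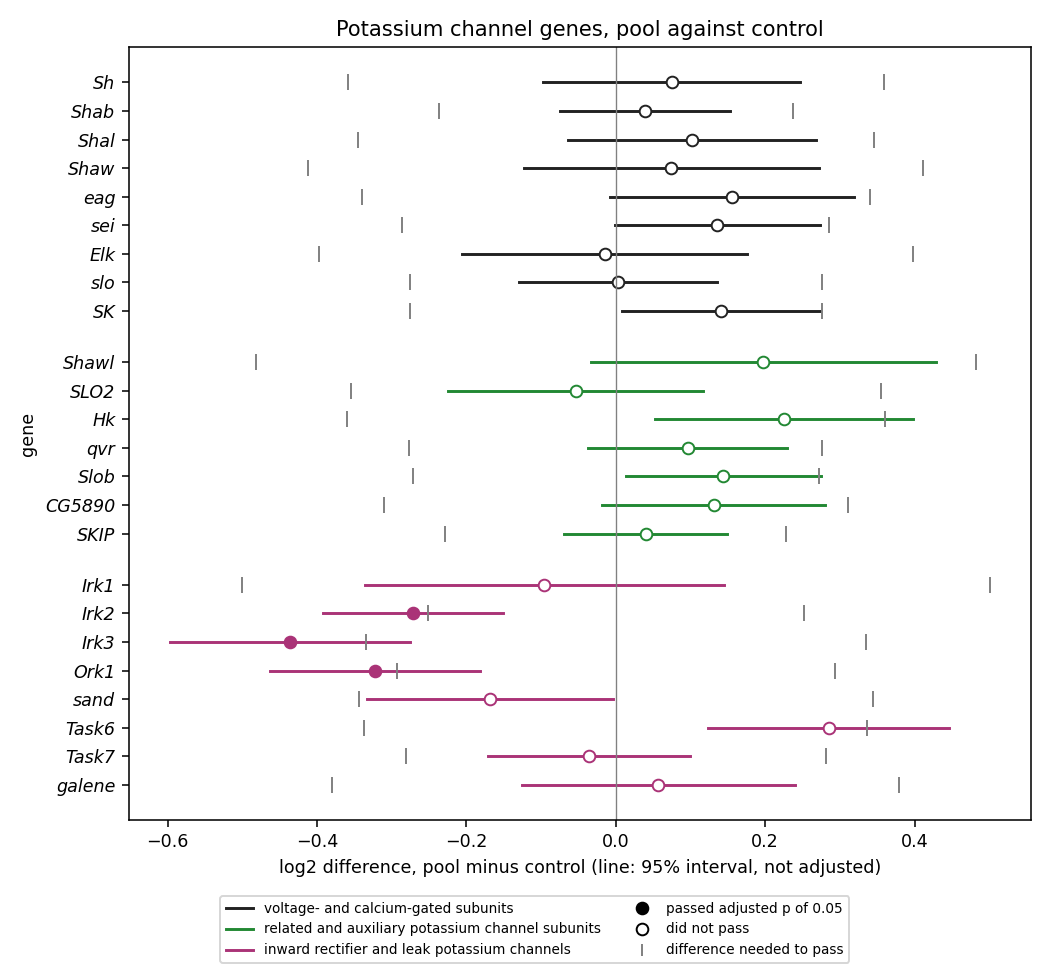
Log2 difference (pool minus control, horizontal axis) of each potassium channel gene (vertical axis), with its unadjusted 95% interval as a line and the difference needed to pass the test as grey ticks; filled points passed an adjusted p of 0.05 in limma. All 9 voltage- and calcium-gated subunits (black) lie short of their ticks, while Irk2, Irk3 and Ork1 lie beyond them on the negative side.

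Among the subunits of the Shaker family, which form classical voltage-gated channels, no gene passed the test. Sh encodes the Shaker channel of the fast transient potassium current in neurons and muscle. Its control arrays read 9.44, 9.57 and 9.62 and its pool arrays 9.63, 9.51 and 9.72 in log2 units for replicates 1, 2 and 3. The groups overlapped, with pool replicate 2 below 2 of the control arrays, and the difference was 0.07 with a standard error of 0.074 (adjusted p = 0.717). The group means were 9.55 ± 0.09 in the control and 9.62 ± 0.11 in the pool (SD, n = 3 per group).

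Shab encodes a delayed rectifier, a channel that opens slowly and stays open to end the action potential. It read 7.93, 7.99 and 7.99 on the control arrays and 8.001, 7.999 and 8.03 on the pool arrays. All pool arrays were above all control arrays, but the closest pair was only 0.0044 apart. The difference of 0.04 (standard error 0.049, adjusted p = 0.786) had an interval that ran from -0.07 to 0.15.

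Shal encodes the transient channel of neuronal cell bodies and dendrites. It read 8.02, 7.97 and 8.06 on the control arrays and 8.15, 7.98 and 8.22 on the pool arrays. Pool replicates 1 and 3 were above every control array, while pool replicate 2 lay among them. The difference was 0.10 with a standard error of 0.071 (adjusted p = 0.584).

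Shaw encodes a channel that opens with little dependence on voltage and helps set the resting potential. It read 8.75, 8.82 and 9.01 on the control arrays and 8.91, 8.84 and 9.05 on the pool arrays. The groups overlapped over most of their range. The control SD of 0.14 was larger than the difference of 0.07 (standard error 0.085, adjusted p = 0.762).

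The eag family, whose subunits carry a cyclic nucleotide-binding fold in their cytoplasmic tail, held the largest difference of the 9 genes, in eag, and the only negative one, in Elk. The ether-a-go-go gene eag read 7.65, 7.74 and 7.85 on the control arrays and 7.82, 7.95 and 7.95 on the pool arrays. Control replicate 3 was above pool replicate 1, so the groups overlapped. The difference was 0.16 with a standard error of 0.070, and the interval from -0.0073 to 0.32 still held 0 (adjusted p = 0.362).

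The gene sei, named seizure, encodes the fly's ERG-type channel, and its mutants are known for seizures and paralysis in heat. It read 7.45, 7.47 and 7.52 on the control arrays and 7.64, 7.69 and 7.53 on the pool arrays. The groups did not overlap, but pool replicate 3 exceeded control replicate 3 by only 0.0054. The difference was 0.14 with a standard error of 0.059 and an interval from -0.0013 to 0.27 (adjusted p = 0.342).

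Elk, the third gene of the family, encodes an eag-like channel. Its control arrays read 5.53, 5.74 and 5.86 and its pool arrays 5.69, 5.70 and 5.71. The pool arrays lay close together, inside the range of the controls, with an SD of 0.011 against 0.16 in the control. The difference was -0.015 with a standard error of 0.082 (adjusted p = 0.962).

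Neither calcium-activated gene passed the test. The slowpoke gene slo encodes the large-conductance channel that opens on both calcium and depolarisation, and it read 9.65, 9.75 and 9.74 on the control arrays and 9.73, 9.66 and 9.77 on the pool arrays. The groups overlapped almost fully and the difference was 0.0034 with a standard error of 0.057 (adjusted p = 0.987). Its interval, from -0.13 to 0.14, corresponds to 0.915-fold to 1.10-fold.

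SK encodes the small-conductance channel that opens on calcium alone and supports the pause after a burst of action potentials. It read 9.79, 9.86 and 9.87 on the control arrays and 10.04, 9.91 and 9.998 on the pool arrays. Every pool array was above every control array, and the closest pair was 0.035 apart. The difference was 0.14, or 1.10-fold, with a standard error of 0.057 and an interval from 0.0079 to 0.27. It did not pass adjustment (adjusted p = 0.309), and under the alternatives tried the adjusted p ranged from 0.119 to 0.543 with differences of 0.11 to 0.18. The difference between SK and slo was not tested.

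**Figure D2:**
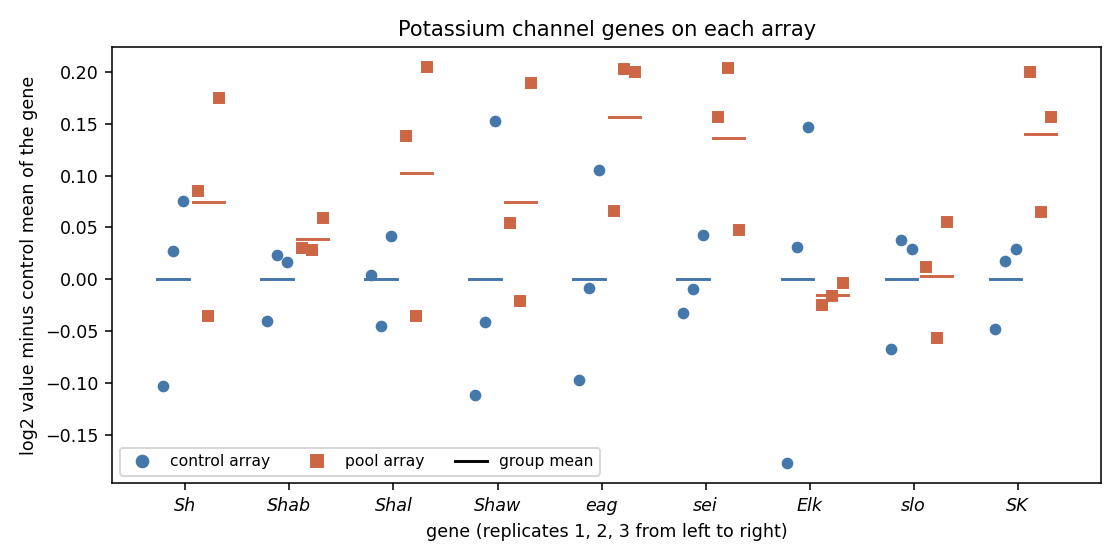
Log2 value of each array minus the gene's control mean (vertical axis) for the 9 channel genes (horizontal axis), with control arrays as circles, pool arrays as squares and group means as lines. Shab, sei and SK have all pool arrays above all control arrays, and Elk and slo have pool means within 0.015 of the control mean.

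In 3 of 9 genes, Shab, sei and SK, the groups did not overlap, and all 3 were higher in the pool. The same held for 21.5% of all rows in either direction and for 11.4% with the pool higher. In an exact two-sided permutation test of the 3 against 3 arrays these 3 genes reached p = 0.1, the smallest this design allows. In the same exact test the other 6 ranged from p = 0.2 for eag to p = 1.0 for slo.

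The channel genes were low together on 1 control array. Control replicate 1 held the lowest of the 6 values in 8 of the 9 channel genes, all but Shal, whereas it was lowest in 19.6% of all rows. Its channel values lay at a median of -0.12 log2 units from the gene means over the 6 arrays, while its median over all rows was -0.0085. Pool replicate 3 held the highest value in 5 of the 9 genes, against 15.3% of all rows. Without control replicate 1 the median difference of the 9 genes was 0.02 in place of 0.07, with 7 higher in the pool, and without pool replicate 3 it was 0.03. Without control replicate 3 it was 0.12 and without pool replicate 2 it was also 0.12.

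Neuronal marker genes were low on the same array. Of 9 listed markers 7 were measured, among them elav, a neuronal RNA-binding protein, nSyb and Snap25 of the synaptic vesicle fusion machinery, and brp of the active zone. Control replicate 1 was lowest in 6 of these 7 and pool replicate 3 highest in 5 of 7. None of the 7 passed limma's test, against 2.9% of all rows, or had an unadjusted p under 0.05, against 14.8%. The groups overlapped in all 7 markers, whereas 21.5% of all rows had no overlap. The median difference of the 7 was 0.06. Their summed level, on the linear scale, ran from 10215 to 11133 in the control and from 10770 to 11383 in the pool. In the 16 sodium, calcium and pacemaker channel genes, control replicate 1 was lowest in 12. The part of neuronal RNA content in the channel values was not tested.

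**Figure D3:**
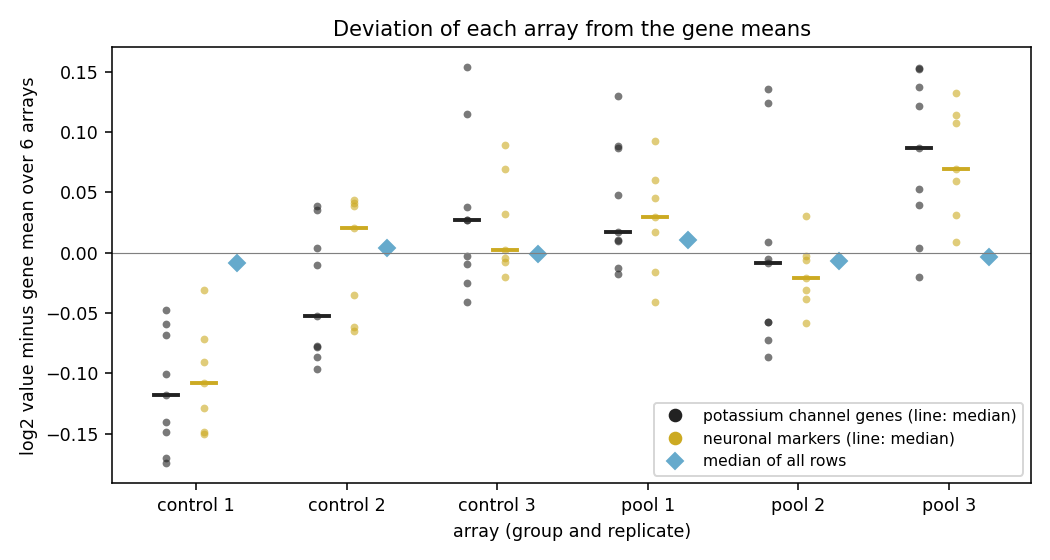
Log2 value of each gene minus its mean over the 6 arrays (vertical axis) by array (horizontal axis), for the 9 potassium channel genes (black), 7 neuronal markers (yellow) and the median of all rows (blue diamonds). Channel genes and neuronal markers lie lowest on control replicate 1, with medians of -0.12 and -0.11, and highest on pool replicate 3, while the median of all rows stays near 0.

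Related and auxiliary subunits were likewise not called. Of 7 measured genes 0 passed limma's test in either direction, against 2.9% of all rows. At an unadjusted p under 0.05 there were 2, against 14.8%, and the median difference was 0.13. The groups did not overlap in 3 of the 7 (Hk, Slob and SKIP), all higher in the pool. The same held for 21.5% of all rows in either direction and for 11.4% with the pool higher. Hk, the Hyperkinetic beta subunit that binds the Shaker channel, stood at 0.22 (standard error 0.075, adjusted p = 0.199). Its control arrays read 8.49, 8.69 and 8.47 and its pool arrays 8.84, 8.70 and 8.78. The groups of Hk did not overlap, with control replicate 2 closest to the pool. Slob, whose product binds the slowpoke channel, stood at 0.14 (standard error 0.056, adjusted p = 0.288). It read 9.99, 10.09 and 10.14 on the control arrays and 10.22, 10.20 and 10.23 on the pool arrays, with no overlap. The remaining 5 genes included the alpha subunit genes Shawl and SLO2 and qvr, whose product sleepless regulates Shaker, and the 7 differences ran from -0.05 to 0.22.

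Genes that anchor, modify or regulate the channels gave 0 called members as well, against 2.9% of all rows. Of 4 measured partners Frq1, a calcium-binding frequenin, stood at 0.13 (adjusted p = 0.287) and dlg1, the scaffold that clusters Shaker at the synapse, at 0.06 (adjusted p = 0.718). Of 7 measured RNA and transcription regulators Adar, the enzyme that edits channel transcripts, stood at 0.12 (adjusted p = 0.395) and pum, a translational repressor known for its action on sodium channel mRNA, at 0.09 (adjusted p = 0.642). The medians of the partner and regulator lists were 0.05 and 0.07. In limma 1 partner and 0 regulators had an unadjusted p under 0.05, against 14.8% of all rows.

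Potassium channels of the other class, the inward rectifiers and leak channels, gave 3 called genes of 8, all lower in the pool, where 1.24% of all rows fell. Irk3 stood at -0.44 (adjusted p = 0.0171), Ork1 at -0.32 (adjusted p = 0.0334) and Irk2 at -0.27 (adjusted p = 0.0356). The median of the list was -0.13, against 0.07 for the voltage- and calcium-gated genes, and the difference between the lists was not tested. Irk3 read 7.73, 7.93 and 7.92 on the control arrays and 7.48, 7.37 and 7.43 on the pool arrays. Its unadjusted interval, from -0.60 to -0.28, lay below that of every voltage- or calcium-gated gene, whose lowest bound was -0.21. The intervals of Ork1, from -0.46 to -0.18, and of Irk2, from -0.39 to -0.15, overlapped that of Elk. Leaving out any single array ended the calls of Ork1 and Irk2, with adjusted p as high as 0.121 and 0.134. Of the 6 such fits only the one without control replicate 1 kept the call of Irk3, and the adjusted p reached 0.0773 in the others. The differences themselves stayed of similar size, from -0.35 to -0.28 for Ork1, from -0.30 to -0.24 for Irk2 and from -0.50 to -0.40 for Irk3. Task6, which encodes a leak channel subunit and was singled out after its values were seen, lay in the other direction at 0.29 (adjusted p = 0.0873), and passed with trend and robust settings (adjusted p = 0.0230) and without control replicate 3 (adjusted p = 0.0407). Of 8 glial markers measured, 2 passed limma's test, both lower in the pool, where 1.24% of all rows did so. The list's median difference was -0.12. The cortex glia gene wrapper stood at -0.47 (adjusted p = 0.00299) and zyd, a glial cation exchanger gene, at -0.42 (adjusted p = 0.0149). The markers repo, at -0.18 (adjusted p = 0.162), and alrm, at -0.17 (adjusted p = 0.143), did not pass. In the other direction moody, a receptor gene of the blood-brain barrier, stood at 0.20 (adjusted p = 0.134). The call of zyd was lost without any 1 array other than control replicate 3, with adjusted p reaching 0.0673. In 6 of the 8 the groups did not overlap, against 21.5% of all rows. Of these, moody was higher in the pool. The genes wrapper, zyd, repo, alrm and nrv2 were lower without overlap, which held for 10% of all rows. The gene nrv2, at -0.07, is also the gene named by the nrv2-RNAi line of the pool. The part of that line in the list's values was not tested. The sum of the 8 log2 values ran from 75.2 to 75.3 in the control and from 74.1 to 74.3 in the pool, without overlap. The summed linear level overlapped, at 11294 to 11747 and 11109 to 11496. This linear sum is weighted to the brightest marker, Gs2, with a mean of 12.37 in both groups. The called genes wrapper and zyd, with control means of 6.57 and 7.36, add little to it. The part of glial RNA content in the Irk and Ork1 values was not tested.

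Sodium, calcium and pacemaker channels, which depolarise the membrane, gave 0 called genes of 16 measured in limma, against 2.9% of all rows. At an unadjusted p under 0.05 there was 1, against 14.8% of all rows, and the median difference was 0.04. The auxiliary gene unc79 of the sodium leak channel complex stood at 0.16 (adjusted p = 0.212) and the calcium channel beta subunit gene Ca-beta at 0.16 (adjusted p = 0.387).

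Muscle also expresses Sh and slo, and 4 of 7 measured muscle markers passed limma's test, all higher in the pool, where 1.65% of all rows did so. Act88F, the flight muscle actin, stood at 1.96 (adjusted p = 7.01e-06), while sls, which encodes a giant sarcomere protein, stood at -0.17 (adjusted p = 0.231). The markers fln at 1.90, TpnC4 at 1.16 and up at 0.28 also passed, while Mlc2 at 0.10 and bt at 0.01 did not. The channel genes Sh and slo stood at 0.07 and 0.0034. The summed level of the muscle list on the linear scale ran from 8061 to 8327 in the control and from 9881 to 10182 in the pool. The part of muscle RNA in the values of Sh and slo was not tested.

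The eye is a further source of channel transcripts in a head. Of 6 measured photoreceptor markers 1 passed limma's test, higher in the pool, where 1.65% of all rows did so. The median difference was 0.11. The groups did not overlap in 5, against 21.5% of all rows. All 5 were higher in the pool, against 11.4% of all rows. The 1 that rose was chp, a photoreceptor adhesion gene, at 0.29 (adjusted p = 0.0309), and its call was lost on omission of any 1 array (adjusted p at most 0.119) and with arrays centred on the median (adjusted p = 0.0699). The summed level of the 6 on the linear scale ran from 23729 to 24179 in the control and from 25708 to 26658 in the pool. The part of photoreceptor RNA in the channel values was not tested.

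**Figure D4:**
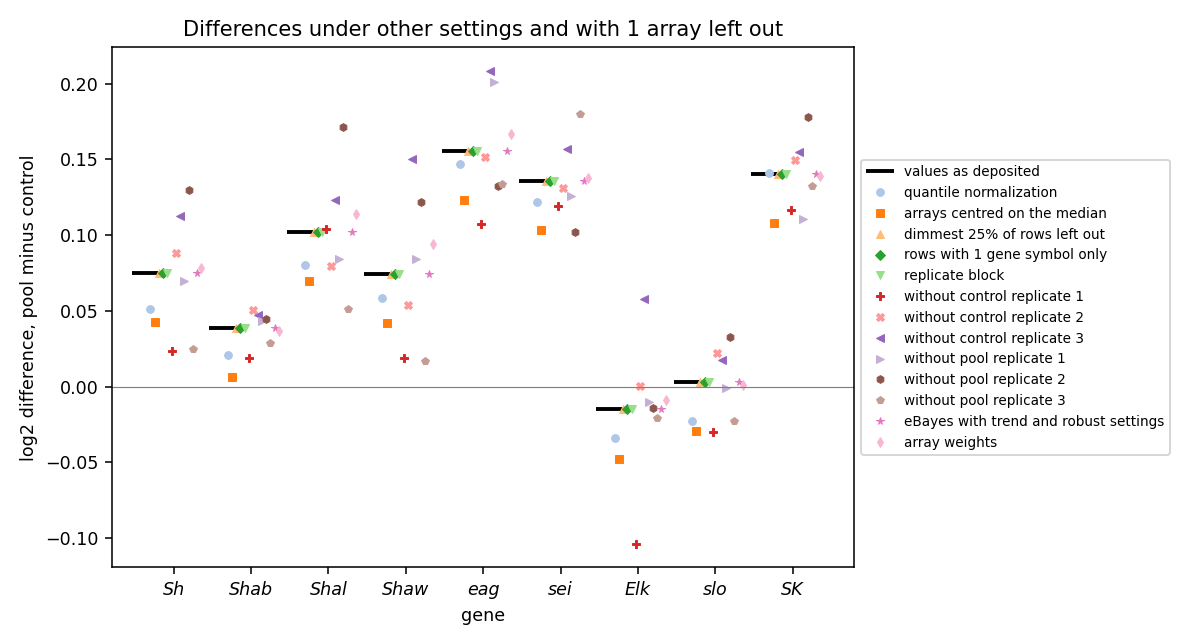
Log2 difference (pool minus control, vertical axis) of the 9 channel genes (horizontal axis) with the values as deposited (black bars) and under 13 other settings, 6 of which leave out 1 array. The signs of Elk and slo change between settings, the other 7 genes stay above 0, and no setting gave a call.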

How the data were processed

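Each array has 1 deposited value per row, taken to be log2 from the range of 3.20 to 14.02. Per the submitters' processing notes the authors used Affymetrix Expression Console; version, algorithm, normalization and genome build: not given in the sources used here. They were used as deposited. Array medians lay between 5.53 and 5.63. Arrays have no read depth, and their number limits the precision. Rows were named through the platform's annotation, and rows of several symbols entered the fit without a name: 13441 of 16322 rows had 1 symbol, 555 several and 2326 none. All rows were fitted with lmFit and eBayes of limma 3.58.1 under R 4.3.3, pool minus control, two-sided, with a Benjamini-Hochberg adjusted p under 0.05 as the call, 4 residual and 3.78 prior degrees of freedom. The fit was tested on simulated arrays. Summed levels add 2 to the power of each value. Where a gene has several rows, that of highest mean was used. Companion genes were named as the called ones of largest change or, with none called, the 2 of smallest p. The genes Task6, wrapper, zyd, moody, repo, alrm, nrv2, Gs2, chp, Act88F, fln, TpnC4, up, Mlc2, bt and sls were singled out after their values were seen. Members and lists were chosen with earlier results of these data known. Figures were drawn with matplotlib 3.10.9.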

Additional observations from a re-analysis of the deposited data

How the results depend on the processing

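The number of called channel genes was 0 under each of the 13 alternatives: quantile normalization, arrays centred on the median, the dimmest 25% of rows left out, rows with 1 symbol only, the replicate number as a block, trend and robust variance settings, array weights and each of the 6 arrays left out. Each channel gene had 1 row, so taking the mean over rows changed nothing. The sign of slo turned to -0.023 with quantile normalization, to -0.029 with arrays centred on the median and was negative without control replicate 1, pool replicate 1 or pool replicate 3, in a range of -0.030 to 0.033 over the 6 arrays left out. Elk turned to 0.0005 without control replicate 2 and to 0.058 without control replicate 3, in a range of -0.10 to 0.058. Centring takes 1 constant from each array, so it moved the difference of every row alike. As deposited, slo stood at 0.0034 and Elk at -0.015, each smaller in size than its standard error (0.057 and 0.082). Over all rows 473 were called, against 125 with a change of at least 1.5-fold, 861 with trend and robust settings and 218 to 312 with 1 array left out. With arrays centred on the median the calls were 219 higher and 249 lower, against 270 and 203. In the companion lists 3 genes were called, against 4 with trend and robust settings, where Task6 was added, and 0 to 1 with 1 array left out. With the replicate number as a block 312 rows and 0 companion genes were called. The correlations of deviations between same-numbered arrays were -0.014, -0.0048 and 0.090, the last being the highest of any control and pool pair. Not every array correlated best with its own number. Whether same-numbered arrays were prepared together is not stated in the labels. Deviations within a group sum to 0, so these correlations depend on each other, and they were not tested. The median over channel genes by setting was added after seeing the data and ranged from 0.02 to 0.12.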

Other observations

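Task6, a leak channel subunit gene singled out after its values were seen, lay opposite to Irk2, Irk3 and Ork1. It read 8.10, 8.12 and 8.30 on the control arrays and 8.45, 8.52 and 8.41 on the pool arrays, with no overlap. Over the 13 alternatives its difference ranged from 0.25 to 0.35 and its adjusted p from 0.0230 to 0.242.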
